A study of Homo sapiens with 9 samples.

Results

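Cell junction, adhesion and epithelial to mesenchymal transition (EMT) genes were examined in RNA-seq of the human colorectal carcinoma line HCT116, a long established culture. The members are 50 genes picked by name, with earlier results of these data known, from the 58735 genes of the deposited table. They comprise 6 adherens junction genes, 5 desmosome genes, 12 tight junction genes, 9 integrins, 3 genes for laminin chains and the hyaluronan receptor, 4 epithelial regulators, 7 mesenchymal genes and 4 caveola genes. Of the 50, 45 had a mean of at least 0.1 FPKM (fragments for each kilobase of a gene, scaled by library size) over the 9 libraries and were tested. CLDN1, ITGB6, CDH2, VIM and ZEB2 did not reach that level, and their reads are given without a test.

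The study sequenced 3 groups with 3 libraries each: WT cells, A20-KO cells and cells labelled A20-OE. A20 is the ubiquitin-editing enzyme encoded by TNFAIP3, which restrains NF-κB signalling. Knockout in the study used sgRNA in the LentiCRISPR v2 lentiviral vector with puromycin selection, and the A20-OE cells are the A20-KO-rescue line, in which A20 was put back into knockout cells. The study's overexpression plasmid is pCMV-3xFlag-A20. Whether WT cells carried an empty vector, and whether each line is 1 clone, is not given in the sources used here, so a property of 1 line and the effect of A20 cannot be told apart. Nothing in the labels says that the 3 libraries of a group came from separate cultures, and p-values then measure only the spread between these libraries, which may be technical.

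Epithelial cells are held together by adherens junctions, in which cadherins bind catenins, by desmosomes, which anchor keratin filaments, and by tight junctions, in which claudins and occludin seal the space between cells and are tied to actin by ZO proteins and cingulin. Integrins attach cells to the matrix, and in hemidesmosomes the pair of α6 and β4 integrin binds laminin-332. In EMT, transcription factors of the SNAIL, ZEB and TWIST families repress epithelial genes such as CDH1, while GRHL, OVOL and ESRP factors maintain the epithelial state.

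Reads recovered from FPKM and gene length ranged from 23406222 to 24963691 per library, and each of the 9 libraries was most similar to another library of its own group. TNFAIP3, at 0.869, 0.8 and 0.736 FPKM in WT, was at 1.93, 2.16 and 1.04 FPKM in the A20-KO-labelled libraries and at 58.7, 66.5 and 56.5 FPKM in A20-OE. The mRNA of the targeted gene was thus not lower in the A20-KO-labelled libraries than in WT, so it does not mark the knockout, whereas the A20-OE libraries lay far above both other groups. Mitochondrial genes took 8.78% ± 1.3 (SD, n = 3) of reads in WT, 10.39% ± 1.36 (SD, n = 3) in the A20-KO-labelled libraries and 12.72% ± 1.07 (SD, n = 3) in A20-OE. The third of the A20-KO-labelled libraries had the highest share of its group, 11.86%, and was the lowest of its group for 28 of the 45 members tested. Genes also shifted with GC content: from WT to the A20-KO-labelled libraries the median log2 fold change was -0.24 in the tenth of genes with the lowest GC and 0.44 in the tenth with the highest. The parts that these 2 gradients play in the results were not tested, apart from a GC content correction that was added after seeing the data and is given beside the members whose test result it changed or whose changed value it moved by over 1.5 times.

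In the A20-KO-labelled libraries, 5 tight junction genes and the laminin-binding integrins ITGA3 and ITGB4 were higher than in WT and CAV1 was lower. The desmosome genes and the SNAIL and ZEB factors did not pass the test. A gene was taken to have changed at a Benjamini-Hochberg adjusted p under 0.05 from limma, and was called when its log2 fold change was also above 1 or below -1. Called higher were CLDN3, CLDN4, TJP3, ITGA3, ITGB4 and OVOL1, 6 of 45 members (13.3%) against 4.91% of all 21636 genes tested. Called lower was 1 member, CAVIN2 (2.22% of members against 2.08% of all genes). CAVIN2 passed the filter on low values only through WT and A20-OE, so its call is no evidence beyond the read counts given below. On the adjusted p alone, 10 members rose (22.2% against 11.3% of all genes), adding CDH3, JUP, F11R and CGN, and 5 fell (11.1% against 11.0%), adding MARVELD2, LAMA3, ESRP2 and CAV1. The median log2 fold change of the 45 members was 0.05, beside -0.005 over all genes. The 6 called higher had 57.5 to 69.2% GC (median 62.2%) against a median of 47.8% over the 45 members, and after the GC content correction 4 members were called in all: CLDN4, TJP3, ITGB4 and SNAI2, the last of which was not called before it.

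From the A20-KO-labelled libraries to A20-OE, the members that changed were matrix receptors, a laminin chain, caveolins and junction genes, and all of them rose. LAMB3 was the only member called (2.22% of members against 1.56% of all genes called higher), and 0 members were called lower (0.832% of all genes were). Limma-voom on the recovered reads also called CAVIN2 higher. On the adjusted p alone 8 members rose (17.8% against 4.43% of all genes): DSC2, CGN, ITGA5, ITGA6, ITGB1, LAMB3, CAV1 and CAV2. By the same measure 0 fell in limma, where 4.54% of all genes did, and the count of members lower was also 0 at an unadjusted p under 0.05 and by limma-voom. The median log2 fold change of the members was 0.29, beside 0.013 over all genes, and 37 of 45 had a positive value. After the GC content correction 17 members rose on the adjusted p alone, and the share of all genes in that fit was not counted. These counts depend on single libraries: the 8 became 13 without WT replicate 1, between 2 and 4 without any 1 of the A20-KO-labelled libraries, and 1 or 2 without any 1 A20-OE library.

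Between A20-OE and WT the largest number of members changed, among them junction, integrin and laminin genes. Called higher were 10 of 45 members (22.2% against 7.68% of all genes): CLDN3, CLDN4, TJP3, CGN, ITGA2, ITGA3, ITGB4, LAMB3, OVOL1 and SNAI2. Called lower was ZEB1 (2.22% against 4.21%). ZEB1 passed the filter on low values only through WT and the A20-KO-labelled libraries. Its fall, with or without the fold threshold, is no evidence beyond the read counts given below. On the adjusted p alone 21 members rose (46.7% against 15.7%) and 3, MARVELD2, GRHL2 and ZEB1, fell (6.67% against 15.4%). The median log2 fold change of the members was 0.34, beside 0.025 over all genes. The 3 comparisons share libraries: A20-OE against WT and A20-KO against WT use the same WT libraries, and A20-OE against A20-KO uses the same libraries labelled A20-KO, so the fold changes are given side by side and are not independent of each other.

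**Figure D1:**
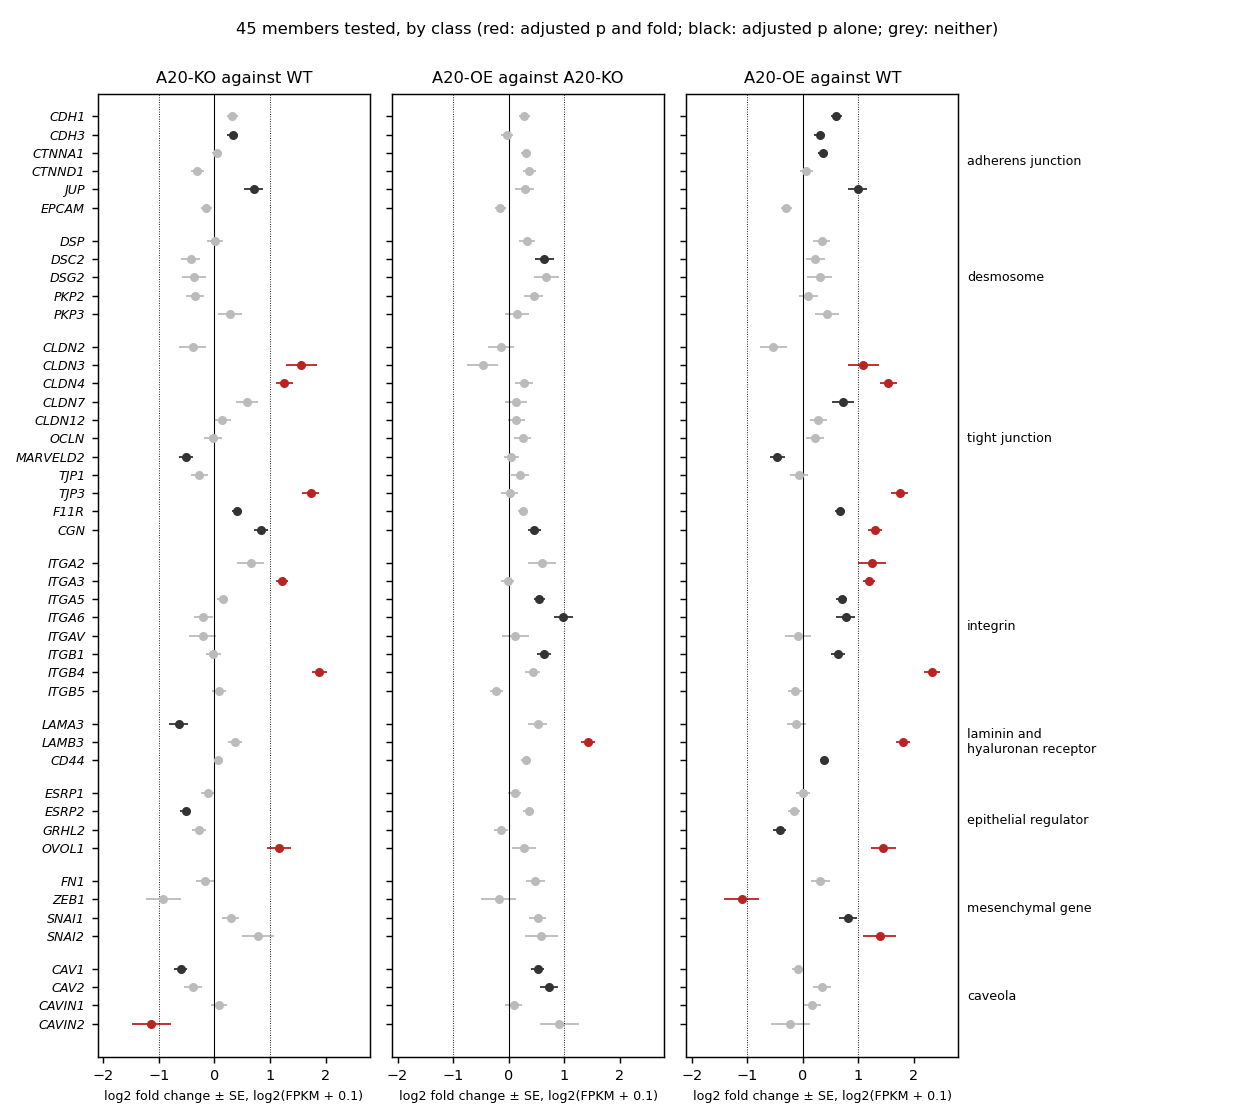
Log2 fold change with its standard error, on the log2(FPKM + 0.1) scale, of the 45 members tested, by class, in the 3 comparisons; red points are called, black points pass the adjusted p alone, grey points pass neither, and dotted lines mark the fold threshold. The tight junction and integrin classes hold 5 of the 6 members called higher in A20-KO against WT, and LAMB3 is the red point in A20-OE against A20-KO.

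Of the 6 adherens junction genes, 2 rose in A20-KO against WT, 0 in A20-OE against A20-KO and 4 in A20-OE against WT, all by less than the fold threshold, beside 11.3%, 4.43% and 15.7% of all genes. In A20-OE against A20-KO 3 of them were higher at an unadjusted p under 0.05 and 0 by limma-voom. CDH1, which encodes E-cadherin, was at 18.1, 17.4 and 17 FPKM in WT, at 23.7, 23.5 and 18.7 FPKM in the A20-KO-labelled libraries, and at 25.8, 27.4 and 26.5 FPKM in A20-OE. The groups did not overlap, and the third of the A20-KO-labelled libraries lay close to WT. The log2 fold change of CDH1 was 0.32 (SE 0.1, adjusted p = 0.058) in A20-KO against WT, 0.28 (SE 0.1, adjusted p = 0.13) in A20-OE against A20-KO, and 0.60 (SE 0.1, adjusted p = 0.0025) in A20-OE against WT, where alone it passed the test. Without the third of the A20-KO-labelled libraries, CDH1 passed the test in A20-KO against WT as well, and it did so after the GC content correction (0.39, adjusted p = 0.0072).

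JUP, plakoglobin, which joins cadherins to the cytoskeleton in both adherens junctions and desmosomes, was at 53.7, 71 and 90 FPKM in WT, at 115, 107 and 122 FPKM in the A20-KO-labelled libraries, and at 143, 128 and 149 FPKM in A20-OE. The WT libraries were widely spread, yet all lay below the other groups. JUP rose in A20-KO against WT (log2 fold change 0.71, SE 0.17, adjusted p = 0.018) and in A20-OE against WT (0.99, SE 0.17, adjusted p = 0.0023). At 61.5% GC, its corrected values were 0.36 (adjusted p = 0.014) in A20-KO against WT and 0.47 (adjusted p = 0.0079) in A20-OE against A20-KO, where the uncorrected value was 0.29 (adjusted p = 0.34). The change in A20-KO against WT was lost without WT replicate 2 or without replicate 1 or 3 of the A20-KO-labelled libraries. CDH3, P-cadherin, rose in both comparisons with WT (log2 fold changes 0.33 and 0.30, adjusted p = 0.038 and 0.041). Its change in A20-KO against WT was lost without any 1 library other than WT replicate 3 or A20-OE replicate 2. That in A20-OE against WT was lost without any 1 library other than WT replicate 3 or replicate 3 of the A20-KO-labelled libraries. CTNNA1, α-catenin, rose in A20-OE against WT alone (0.37, adjusted p = 0.013), and after the GC content correction also in A20-OE against A20-KO (0.24, adjusted p = 0.043). CDH3 shares 11.1% of its exonic bases with AC126773.2 on the opposite strand, and reads of the 2 cannot be told apart unless the counting used strand, which is not stated.

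EPCAM, an epithelial adhesion molecule and the most abundant member of this class by FPKM, was at 140, 124 and 125 FPKM in WT, at 114, 117 and 119 FPKM in the A20-KO-labelled libraries, and at 103, 96 and 117 FPKM in A20-OE. Its A20-OE libraries lay below WT, but its log2 fold change of -0.30 (SE 0.1) had an adjusted p of 0.053, and of 0.041 after the GC content correction (-0.29). CTNND1, p120 catenin, which stabilizes cadherins at the membrane, had log2 fold changes of -0.31, 0.37 and 0.06 in the 3 comparisons and passed in none of them, although 2 had an unadjusted p under 0.05.

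Desmosome genes gave no call against WT in limma on the deposited values. In A20-KO against WT 0 of the 5 passed the adjusted p in limma, with log2 fold changes from -0.43 for DSC2 to 0.28 for PKP3, and in A20-OE against WT 0 of the 5 passed, with values from 0.10 for PKP2 to 0.43 for PKP3. At an unadjusted p under 0.05 DSC2 alone was lower in A20-KO against WT and 0 were in A20-OE against WT, and limma-voom passed 0 in either. After the GC content correction DSC2 (0.33, adjusted p = 0.036) and PKP3 (0.24, adjusted p = 0.036) passed in A20-OE against WT, and DSG2, desmoglein 2, passed in A20-OE against A20-KO (0.58, adjusted p = 0.047). DSC2, desmocollin 2, a desmosomal cadherin, was at 7.58, 6.53 and 5.73 FPKM in WT, at 5.34, 5.77 and 3.73 FPKM in the A20-KO-labelled libraries, and at 7.63, 8.24 and 7.13 FPKM in A20-OE. The A20-OE libraries lay above all of those labelled A20-KO and overlapped WT. DSC2 passed the test in A20-OE against A20-KO (log2 fold change 0.64, SE 0.17, adjusted p = 0.04982), and 8 of the 9 fits that each left out 1 library lost it, WT replicate 1 being the exception. PKP3, plakophilin 3, had the highest mean FPKM of the class: 26, 39.9 and 48.3 FPKM in WT, 44.9, 38.9 and 51 in the A20-KO-labelled libraries, and 52, 42.5 and 55.3 in A20-OE. Its groups overlapped in every comparison. At 66.8% GC, PKP3 went from 0.28 (adjusted p = 0.41) to -0.18 (adjusted p = 0.11) in A20-KO against WT with the correction, and from 0.15 (adjusted p = 0.71) to 0.42 (adjusted p = 0.0076) in A20-OE against A20-KO.

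Tight junction genes held 5 of the 10 members that rose in A20-KO against WT. Of the 11 tested, 5 rose and 1 fell in A20-KO against WT, 1 rose in A20-OE against A20-KO, and 6 rose and 1 fell in A20-OE against WT. Over all genes tested 11.3% rose and 11.0% fell in the first of these comparisons, 4.43% and 4.54% in the second, and 15.7% and 15.4% in the third. The median log2 fold changes of the class were 0.41, 0.14 and 0.66. The genes that rose were claudins, scaffold proteins and an adhesion molecule, whereas occludin and ZO-1 did not pass the test.

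TJP3, which encodes the scaffold ZO-3 (chromosome 19, 3708109 to 3750813 on GRCh38, plus strand), was at 7.49, 8.86 and 10.6 FPKM in WT, at 30.4, 25.8 and 33.3 FPKM in the A20-KO-labelled libraries, and at 29.6, 27.6 and 33 FPKM in A20-OE. Every library of the 2 edited lines lay above every WT library, and those 2 groups overlapped each other. The means were 8.99 ± 1.56, 29.8 ± 3.75 and 30.1 ± 2.74 FPKM (SD, n = 3). The log2 fold change was 1.73 (SE 0.15, adjusted p = 0.00019) in A20-KO against WT, 0.02 (SE 0.15, adjusted p = 0.97) in A20-OE against A20-KO, and 1.74 (SE 0.15, adjusted p = 5.6e-05) in A20-OE against WT. Its transcript is 63.2% GC, and after the GC content correction the value in A20-KO against WT was 1.30.

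CLDN4, a claudin that tightens the seal to sodium (chromosome 7, 73799542 to 73832693, plus strand), was at 28.2, 34.8 and 45.6 FPKM in WT, at 86.1, 78.3 and 91.9 FPKM in the A20-KO-labelled libraries, and at 106, 93.9 and 111 FPKM in A20-OE. The 3 groups were ordered without overlap, WT lowest and A20-OE highest. CLDN4 rose in A20-KO against WT (log2 fold change 1.26, SE 0.16, adjusted p = 0.0012) and in A20-OE against WT (1.54, SE 0.16, adjusted p = 0.00019), and had a value of 0.28 (SE 0.16, adjusted p = 0.33) between the 2 edited lines. After the GC content correction its value was 1.08 in A20-KO against WT, and the value between the edited lines, 0.42, passed the test (adjusted p = 0.019).

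CLDN3, a sealing claudin next to CLDN4 on the same chromosome (73768997 to 73770270, minus strand), was at 12.2, 19.3 and 26.7 FPKM in WT, at 55.4, 43.3 and 68.1 FPKM in the A20-KO-labelled libraries, and at 41.3, 32.9 and 45.3 FPKM in A20-OE. All edited libraries lay above WT, the A20-OE libraries overlapped those labelled A20-KO, and the spread within each group was wide. CLDN3 rose in A20-KO against WT (log2 fold change 1.56, SE 0.28, adjusted p = 0.0045) and in A20-OE against WT (1.09, SE 0.28, adjusted p = 0.015). Its GC content of 69.2% was the highest of all members, and after the GC content correction the 2 values were 0.97 and 0.78, under the fold threshold. The second call was also lost without WT replicate 1, A20-OE replicate 1 or A20-OE replicate 3.

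CGN, cingulin, which links ZO proteins to actomyosin (chromosome 1, 151510510 to 151538692, plus strand), was at 4.19, 5.08 and 5.08 FPKM in WT, at 9.35, 8.92 and 7.67 FPKM in the A20-KO-labelled libraries, and at 11, 12.8 and 11.8 FPKM in A20-OE. The 3 groups did not overlap. CGN passed the test in all 3 comparisons, with log2 fold changes of 0.84 (SE 0.12, adjusted p = 0.0017) in A20-KO against WT, 0.46 (SE 0.12, adjusted p = 0.047) in A20-OE against A20-KO, and 1.30 (SE 0.12, adjusted p = 9.2e-05) in A20-OE against WT, where it was called. The change between the edited lines was lost when any 1 library other than WT replicate 1 was left out (8 of 9).

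F11R, junctional adhesion molecule A, was at 13.1, 12.3 and 13.1 FPKM in WT, at 17, 15.9 and 18.3 FPKM in the A20-KO-labelled libraries, and at 20.3, 18.7 and 22 FPKM in A20-OE. Its groups were ordered without overlap, as those of CLDN4 were, with log2 fold changes of 0.41 (adjusted p = 0.015) and 0.66 (adjusted p = 0.00089) against WT. The first was lost without WT replicate 2 or without replicate 1 of the A20-KO-labelled libraries, and 36.6% of its exonic bases are shared with AL591806.3 on the same strand, so its level is uncertain. CLDN7 was at 33.9, 53.2 and 60.6 FPKM in WT, at 72, 63.5 and 81 FPKM in the A20-KO-labelled libraries, and at 79.3, 73.4 and 84.2 FPKM in A20-OE. All edited libraries lay above WT, and the 2 edited groups overlapped. It rose in A20-OE against WT (log2 fold change 0.72, SE 0.2, adjusted p = 0.023), a change lost without any 1 A20-OE library. Its value in A20-KO against WT was 0.59 (adjusted p = 0.064), 0.26 (adjusted p = 0.068) after the GC content correction, and passed by limma-voom.

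MARVELD2, tricellulin, which seals the points where cells meet at corners, went the other way. It was at 6.16, 5.9 and 5.5 FPKM in WT, at 4.65, 4.31 and 3.36 FPKM in the A20-KO-labelled libraries, and at 4.08, 4.11 and 4.48 FPKM in A20-OE. Both edited groups lay below WT and overlapped each other. MARVELD2 fell in A20-KO against WT (log2 fold change -0.51, SE 0.13, adjusted p = 0.022) and in A20-OE against WT (-0.46, SE 0.13, adjusted p = 0.025), and both changes were lost without WT replicate 1 or WT replicate 2. The second was also lost without A20-OE replicate 1 or 2. OCLN, TJP1, CLDN2 and CLDN12 passed in 0 of the 3 comparisons in limma, in limma-voom or at an unadjusted p under 0.05, with log2 fold changes between -0.53 and 0.28. CLDN12, at 38.1% GC the lowest of the members, passed in both comparisons with WT after the GC content correction (0.34 in each, adjusted p = 0.011 and 0.0077). CLDN1 had 10, 6 and 6 WT reads, 7, 5 and 3 in the A20-KO-labelled libraries, and 18, 13 and 11 in A20-OE.

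**Figure D2:**
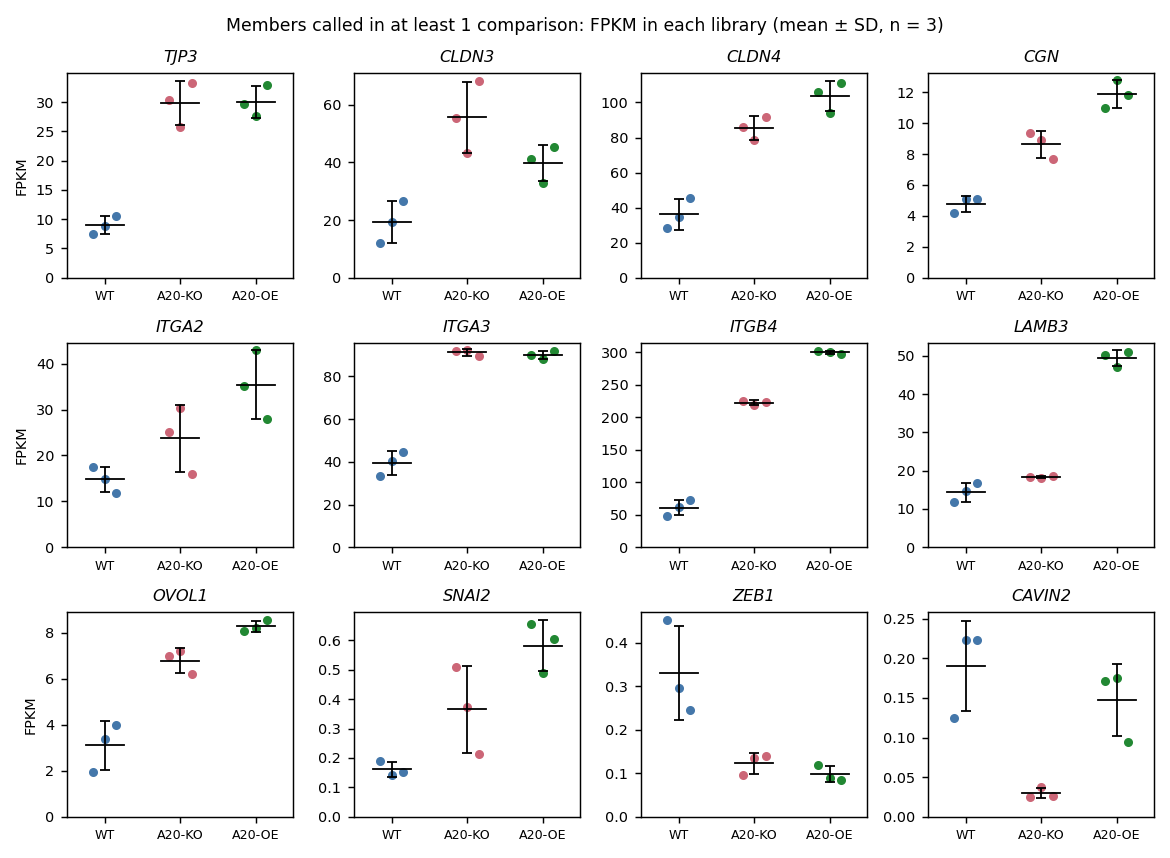
FPKM in each library of the 12 members called in at least 1 comparison (points), with the mean and SD of the 3 libraries of each group; each panel has its own linear axis from 0. TJP3, ITGA3 and ITGB4 step up between WT and the A20-KO-labelled libraries, whereas LAMB3 steps up between those libraries and A20-OE, and CAVIN2 is lowest in the A20-KO-labelled libraries.

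The sequence before the transcription start of several of these genes was searched for 3 motifs that belong to known regulators of junction genes. They were the GRHL motif AACNGGTT, the E-box letters CAGGTG (or CACCTG on the other strand) that SNAIL and ZEB factors can bind, and the AP-1 motif TGANTCA. The AP-1 letters read the same on both strands. The GRHL motif was searched on the strand of the gene only, so its counts leave out matches on the other strand. The windows were the 250 bases before each start in RefSeq on GRCh38.p14, and 34 of the 50 members had at least 1 window. Not among these were GRHL2, CAVIN1, SNAI1, F11R, EPCAM, PKP3, ESRP1, OVOL1, ESRP2, ITGA3, PKP2, CTNND1, ITGB4, CDH1, SNAI2 and CDH3. The GRHL motif was in 0.789% of all 35116 windows and in 1 of the 63 windows of members, that of CGN. The E-box letters were in 17.5% of all windows and in 16 windows of members, and the AP-1 motif was in 6.57% of all windows and in 5. The CGN window is shown whole as the one member window with the GRHL motif on the strand of the gene. Around the E-box of TJP3 and the 2 AP-1 motifs of CLDN4, both called genes, 30 bases are shown. These motifs lie at least in part within exons annotated for transcripts of the same genes. Motif letters are in capitals. CGN is at chr1:151511137-151511386, TJP3 at chr19:3721707-3721736, and CLDN4 at chr7:73830746-73830775 and chr7:73830824-73830853, all on the plus strand.
CGN: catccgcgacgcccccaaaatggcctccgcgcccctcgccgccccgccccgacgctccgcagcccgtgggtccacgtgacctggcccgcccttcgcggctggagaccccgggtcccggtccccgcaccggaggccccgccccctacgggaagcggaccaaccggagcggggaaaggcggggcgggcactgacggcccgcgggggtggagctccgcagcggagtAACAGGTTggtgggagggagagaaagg
TJP3: gagacctggaggaggaagaggggCAGGTGc
CLDN4 first: ctgggctgTGATTCAgtgtctgtctcccgg
CLDN4 second: agactggatagTGACTCAgggacccggggc

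The motif in CGN begins 27 bases before the start, that in TJP3 begins 7 bases before it, and those in CLDN4 begin 242 and 161 bases before it. A match describes letters and is neither a bound site nor a cause, and values per gene do not show which start was used.

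Among the integrin genes ITGA3 and ITGB4 rose against WT in both edited lines, ITGA5, ITGA6 and ITGB1 rose in A20-OE against both other groups, and ITGA2 rose in A20-OE against WT. Of the 8 tested, 2 rose in A20-KO against WT, 3 rose in A20-OE against A20-KO and 6 rose in A20-OE against WT, and 0 fell in any comparison in limma, in limma-voom or at an unadjusted p under 0.05. The shares of all genes that rose were 11.3%, 4.43% and 15.7%. The median log2 fold changes of the class were 0.12, 0.49 and 0.74.

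ITGB4, integrin β4, the hemidesmosome subunit (chromosome 17, 75721328 to 75757818, plus strand), was at 48.5, 62 and 72.2 FPKM in WT, at 225, 219 and 224 FPKM in the A20-KO-labelled libraries, and at 302, 300 and 298 FPKM in A20-OE. The spread within each edited group was a few FPKM, and the 3 groups were far apart. Its means were 60.9 ± 11.9, 222 ± 2.83 and 300 ± 1.78 FPKM (SD, n = 3). The log2 fold change was 1.89 (SE 0.14, adjusted p = 0.00013) in A20-KO against WT, 0.43 (SE 0.14, adjusted p = 0.087) in A20-OE against A20-KO, and 2.32 (SE 0.14, adjusted p = 1.2e-05) in A20-OE against WT. At 63.7% GC, its corrected values were 1.46, 0.62 and 2.07, and the second of these passed the test (adjusted p = 0.0024).

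ITGA3, integrin α3, which with β1 forms another receptor for laminin-332 (chromosome 17, 50055968 to 50090481, plus strand), was at 33.5, 40.6 and 44.6 FPKM in WT, at 92, 92.2 and 89.4 FPKM in the A20-KO-labelled libraries, and at 90, 88 and 91.7 FPKM in A20-OE. Its level was about the same in both edited groups and above every WT library. The log2 fold change was 1.21 (SE 0.11, adjusted p = 0.00024) in A20-KO against WT, -0.02 (SE 0.11, adjusted p = 0.94) in A20-OE against A20-KO and 1.19 (SE 0.11, adjusted p = 9e-05) in A20-OE against WT. After the GC content correction the first value was 0.86, which passed the adjusted p but not the fold threshold.

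ITGA6, integrin α6, the partner of β4, was at 23.5, 19.4 and 17.9 FPKM in WT, at 20.1, 20 and 13.3 FPKM in the A20-KO-labelled libraries, and at 33.9, 37.8 and 32 FPKM in A20-OE. Its WT libraries overlapped those labelled A20-KO, and every A20-OE library lay above both. ITGA6 rose in A20-OE against A20-KO (log2 fold change 0.98, SE 0.17, adjusted p = 0.013) and in A20-OE against WT (0.77, SE 0.17, adjusted p = 0.0086), and its value in A20-KO against WT was -0.20 (adjusted p = 0.44). The β4 mRNA was thus higher than WT in both edited lines, and that of its partner α6 in A20-OE; the difference between the 2 genes was not tested.

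ITGB1, integrin β1, the common partner of many α chains, was at 83.3, 78 and 68.2 FPKM in WT, at 82.1, 83.7 and 62.4 FPKM in the A20-KO-labelled libraries, and at 116, 125 and 113 FPKM in A20-OE. ITGA5, the α chain of the fibronectin receptor, was at 10.3, 11.7 and 12.8 FPKM in WT, at 12.7, 13.7 and 12.2 FPKM in the A20-KO-labelled libraries, and at 18.3, 18.5 and 19.9 FPKM in A20-OE. Both genes followed ITGA6: WT and the A20-KO-labelled libraries overlapped, and A20-OE lay above them. In A20-OE against A20-KO the log2 fold change was 0.64 (SE 0.13, adjusted p = 0.022) for ITGB1 and 0.55 (SE 0.1, adjusted p = 0.014) for ITGA5, and in A20-OE against WT it was 0.63 (adjusted p = 0.0066) and 0.70 (adjusted p = 0.00092). Between the edited lines these changes were lost without any 1 A20-OE library or without replicate 1 of the A20-KO-labelled libraries, and that of ITGA6 without A20-OE replicate 1 or 2.

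ITGA2, the α chain of a collagen receptor (chromosome 5, 52989326 to 53094779, plus strand), was at 17.5, 14.9 and 11.9 FPKM in WT, at 25.1, 30.3 and 15.9 FPKM in the A20-KO-labelled libraries, and at 35.1, 43 and 28 FPKM in A20-OE. The middle group overlapped both others. ITGA2 was called in A20-OE against WT (log2 fold change 1.25, SE 0.25, adjusted p = 0.0053), with 0.65 (adjusted p = 0.097) in A20-KO against WT and 0.60 (adjusted p = 0.18) in A20-OE against A20-KO. The A20-KO against WT value passed by limma-voom (adjusted p = 0.037) and without replicate 3 of the A20-KO-labelled libraries, and, at 40.2% GC, it was 0.86 (adjusted p = 0.0081) after the GC content correction. ITGAV and ITGB5 passed in 0 comparisons in limma, in limma-voom or at an unadjusted p under 0.05, with log2 fold changes between -0.22 and 0.12. ITGB6, whose product activates latent TGF-β together with αV, had 9, 3 and 3 WT reads, 13, 13 and 7 in the A20-KO-labelled libraries, and 9, 3 and 1 in A20-OE.

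Of the 2 members that encode chains of laminin-332, the ligand of the α3β1 and α6β4 integrins, LAMB3 rose in A20-OE against both other groups and LAMA3 did not. LAMB3 (chromosome 1, 209614870 to 209652466, minus strand), which encodes the β3 chain, was at 11.7, 14.6 and 16.7 FPKM in WT, at 18.4, 18 and 18.5 FPKM in the A20-KO-labelled libraries, and at 50.2, 47.2 and 51 FPKM in A20-OE. The libraries labelled A20-KO lay just above WT, and A20-OE lay far above both. Its log2 fold change was 0.37 (SE 0.12, adjusted p = 0.061) in A20-KO against WT, 1.43 (SE 0.12, adjusted p = 0.00072) in A20-OE against A20-KO and 1.80 (SE 0.12, adjusted p = 2.1e-05) in A20-OE against WT. The 2 called values were 1.55 and 1.66 after the GC content correction, and both calls held in all 22 settings of the test.

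LAMA3, which encodes the α3 chain, was at 1.49, 1.52 and 1.49 FPKM in WT, at 1, 1.07 and 0.748 FPKM in the A20-KO-labelled libraries, and at 1.38, 1.58 and 1.18 FPKM in A20-OE. The A20-KO-labelled libraries lay below all others, WT and A20-OE overlapped, and per length its level was below that of LAMB3 in every library. LAMA3 fell in A20-KO against WT (log2 fold change -0.64, SE 0.17, adjusted p = 0.028), and 6 of the 9 fits that each left out 1 library, those without any 1 WT library, without replicate 1 or 3 of the A20-KO-labelled libraries or without A20-OE replicate 1, lost it. Its value was 0.52 (adjusted p = 0.098) in A20-OE against A20-KO and -0.12 (adjusted p = 0.64) in A20-OE against WT. CD44, the hyaluronan receptor, was at 61.9, 55.3 and 58.8 FPKM in WT, at 60.8, 65.1 and 59 FPKM in the A20-KO-labelled libraries and at 74.2, 76.3 and 78.2 FPKM in A20-OE, and rose in A20-OE against WT (log2 fold change 0.38, SE 0.08, adjusted p = 0.0085). Corrected for GC content, CD44 also passed in A20-KO against WT (0.21 in place of 0.07, adjusted p = 0.035) and in A20-OE against A20-KO (0.25 in place of 0.31, adjusted p = 0.03).

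**Figure D3:**
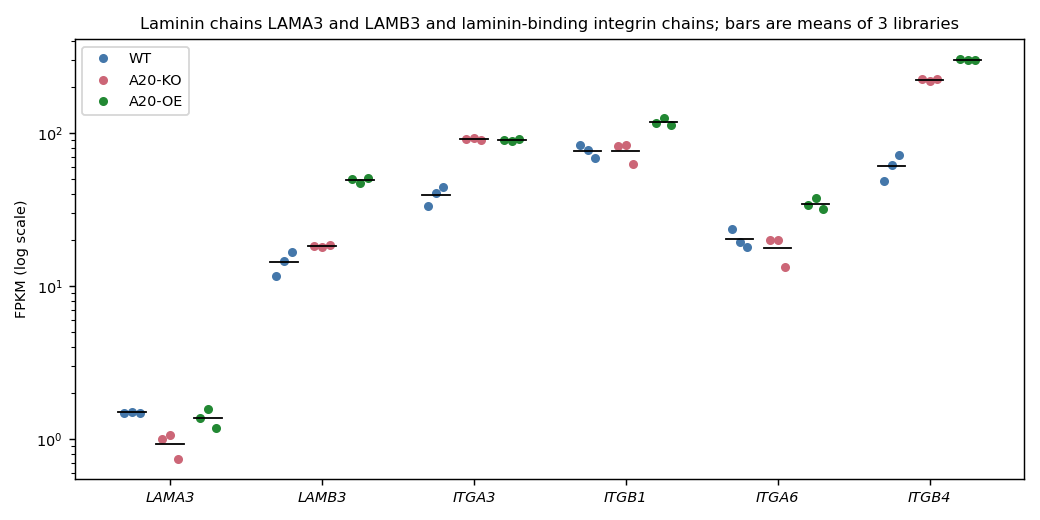
FPKM (log axis) of the laminin chains LAMA3 and LAMB3 and of the laminin-binding integrin chains in each library; points are libraries and bars are the means of 3. LAMB3 is higher in A20-OE than in both other groups, ITGA3 and ITGB4 are higher in both edited lines than in WT, and LAMA3 stays between 0.748 and 1.58 FPKM.

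LAMB3, the gene called between the edited lines, has an AP-1 motif in the window before 1 of its RefSeq starts. The 230 bases of that window that lie outside annotated exons, chr1:209651395-209651624 on the minus strand, are shown with the motif in capitals, which begins 67 bases before the start.
LAMB3: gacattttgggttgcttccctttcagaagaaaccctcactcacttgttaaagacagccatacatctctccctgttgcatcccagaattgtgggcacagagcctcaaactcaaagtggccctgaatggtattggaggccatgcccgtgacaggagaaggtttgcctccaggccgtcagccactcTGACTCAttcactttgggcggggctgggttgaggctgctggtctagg

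Of the 34 members with a window, CDH2, CLDN2, CLDN4, LAMA3 and LAMB3 had the AP-1 letters in at least 1 window. The E-box letters were in those of 14 members: CLDN7, DSC2, DSG2, DSP, ITGA6, ITGB5, ITGB6, JUP, LAMA3, LAMB3, OCLN, TJP1, TJP3 and ZEB1. In LAMB3 the E-box letters CAGGTG begin 218 bases before another of its starts. Whether motifs and calls go together was not tested.

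Among the epithelial regulators, OVOL1 rose and ESRP2 fell. OVOL1, a zinc finger repressor that opposes EMT (chromosome 11, 65787022 to 65797219, plus strand), was at 1.94, 3.37 and 3.98 FPKM in WT, at 6.99, 7.18 and 6.18 FPKM in the A20-KO-labelled libraries, and at 8.07, 8.19 and 8.55 FPKM in A20-OE. The 3 groups did not overlap, and the first WT library was the lowest. OVOL1 rose in A20-KO against WT (log2 fold change 1.16, SE 0.22, adjusted p = 0.0063) and in A20-OE against WT (1.45, SE 0.22, adjusted p = 0.0013), with 0.28 (adjusted p = 0.46) between the edited lines. The first value fell under the fold threshold without WT replicate 1, with a pseudocount of 1 and after the GC content correction (0.89). OVOL1 shares 27.1% of its exonic bases with AP001266.1 on the opposite strand, which is listed at 0 in every library.

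ESRP2, a splicing factor of the epithelial program, was at 11.3, 13.3 and 13.4 FPKM in WT, at 8.97, 9.26 and 8.23 FPKM in the A20-KO-labelled libraries, and at 11.1, 12 and 10.9 FPKM in A20-OE. The libraries labelled A20-KO lay below both other groups, which overlapped. ESRP2 fell in A20-KO against WT (log2 fold change -0.52, SE 0.1, adjusted p = 0.0064), with 0.36 (adjusted p = 0.056) in A20-OE against A20-KO and -0.16 (adjusted p = 0.27) in A20-OE against WT. With 59.6% GC it went against the GC trend, and its corrected values were -0.84 in A20-KO against WT and 0.51 (adjusted p = 0.021) in A20-OE against A20-KO. ESRP1, its more abundant paralog, was at 38.8, 31.1 and 30.6 FPKM in WT, at 32.6, 32.8 and 27.2 FPKM in the A20-KO-labelled libraries and at 32.7, 33.2 and 33.7 FPKM in A20-OE, and its groups overlapped throughout. GRHL2, a grainyhead-like factor that maintains CDH1 and claudin expression, fell in A20-OE against WT (log2 fold change -0.42, SE 0.12, adjusted p = 0.026), from a mean of 6.44 ± 0.104 to 4.8 ± 0.438 FPKM (SD, n = 3). This change was lost without WT replicate 2 or 3, without A20-OE replicate 1 or 3, and with no filter on low values.

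Of the 7 mesenchymal genes, 5 stayed under 1 FPKM in every library. CDH2, N-cadherin, had 0, 0 and 1 WT reads, 0, 0 and 0 in the A20-KO-labelled libraries, and 1, 2 and 5 in A20-OE. VIM, vimentin, had 6, 19 and 20 WT reads, 11, 11 and 16 in the A20-KO-labelled libraries, and 7, 4 and 2 in A20-OE, and 12.4% of its exonic bases are shared with VIM-AS1. ZEB2 had 2, 0 and 0 WT reads, 0, 2 and 0 in the A20-KO-labelled libraries, and 0 in each A20-OE library. For CDH2 and ZEB2 a difference between WT and the A20-KO-labelled libraries was not detectable at this depth. The depth-adjusted ratio of summed VIM reads was 0.875 in the A20-KO-labelled libraries against WT (95% counting interval 0.553 to 1.38) and 0.304 in A20-OE against WT (0.15 to 0.573). For CDH2 the ratio of A20-OE to WT reads was 8.41 with a 95% counting interval from 1.13 to 373, and these intervals cover counting error only.

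ZEB1 (chromosome 10, 31318495 to 31529814, plus strand), a repressor of CDH1, had 97, 64 and 53 WT reads, 20, 29 and 28 in the A20-KO-labelled libraries, and 24, 19 and 17 in A20-OE. Every WT library lay above every edited one, and the edited groups overlapped. In FPKM the means were 0.331 ± 0.108, 0.123 ± 0.0246 and 0.0976 ± 0.0183 (SD, n = 3). ZEB1 was called lower in A20-OE against WT (log2 fold change -1.10, SE 0.31, adjusted p = 0.025), and had -0.92 (SE 0.31, adjusted p = 0.063) in A20-KO against WT, where limma-voom on the recovered reads called it lower. The pseudocount of 0.1 FPKM is close to these levels and understates the fold. The A20-OE mean lay under the 0.1 FPKM filter, which ZEB1 passed through its other groups, so its call is no evidence beyond the read counts. The call was lost without WT replicate 1 or 2, without A20-OE replicate 2 or 3, with a pseudocount of 1 and with no filter on low values.

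SNAI2, which encodes the repressor SLUG, had 16, 12 and 13 WT reads, 42, 31 and 17 in the A20-KO-labelled libraries, and 52, 41 and 47 in A20-OE. It lay in the opposite order to ZEB1, lowest in WT, and its middle group reached into A20-OE. SNAI2 was called higher in A20-OE against WT (log2 fold change 1.38, SE 0.29, adjusted p = 0.0066), with 0.78 (SE 0.29, adjusted p = 0.086) in A20-KO against WT and 0.59 (adjusted p = 0.24) between the edited lines. The A20-KO against WT value was 1.02 (adjusted p = 0.023) after the GC content correction, and it also passed without replicate 3 of the A20-KO-labelled libraries. The call in A20-OE was lost with a pseudocount of 1.

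SNAI1, SNAIL, the most abundant of the EMT factors by FPKM, was at 7.53, 10.1 and 11.4 FPKM in WT, at 11.2, 10.9 and 13.2 FPKM in the A20-KO-labelled libraries, and at 15.8, 15.7 and 18.9 FPKM in A20-OE. The A20-OE libraries lay above both other groups, which overlapped. It rose in A20-OE against WT (log2 fold change 0.81, SE 0.16, adjusted p = 0.0048), with 0.52 (adjusted p = 0.08) in A20-OE against A20-KO and 0.29 (adjusted p = 0.23) in A20-KO against WT. Corrected for GC content it also passed in A20-OE against A20-KO (0.63, adjusted p = 0.0025). SNAI1, SNAI2 and CDH1 thus all rose in A20-OE against WT. FN1, fibronectin, was at 1.69, 1.53 and 1.37 FPKM in WT, at 1.39, 1.6 and 1.08 FPKM in the A20-KO-labelled libraries, and at 1.95, 2.08 and 1.71 FPKM in A20-OE, and passed in 0 comparisons in limma, and in 1 (A20-OE against A20-KO) by limma-voom and at an unadjusted p under 0.05. FN1 passed in A20-OE against WT after the GC content correction (0.38, adjusted p = 0.045).

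**Figure D4:**
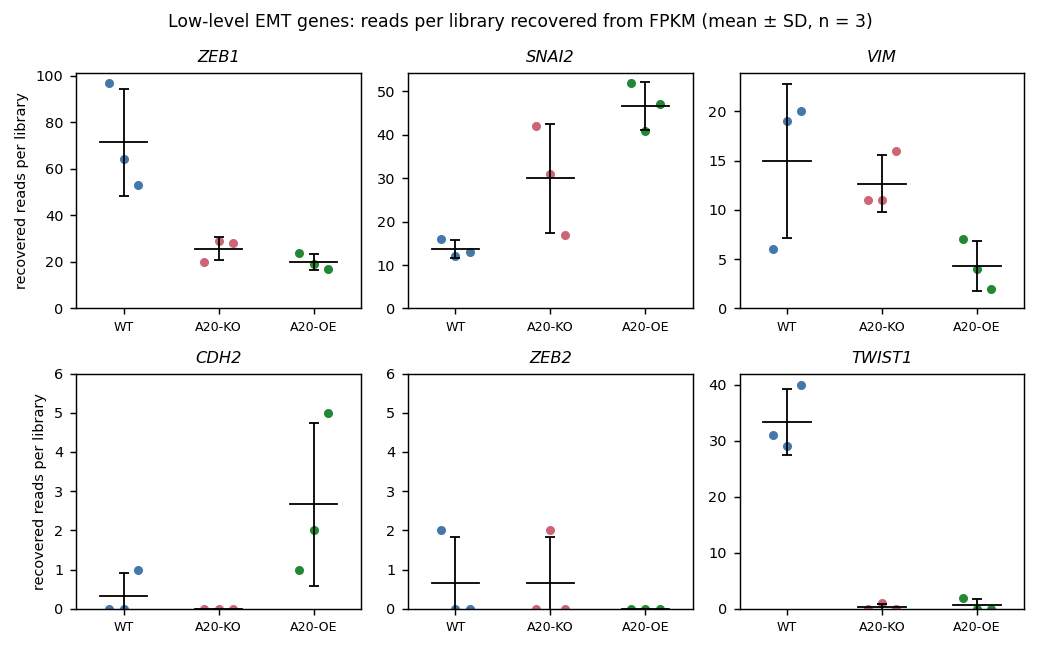
Reads per library, recovered from FPKM and gene length, of 5 EMT members with few reads and of TWIST1; points are libraries, and bars show the mean and SD of 3. ZEB1 and TWIST1 are highest in WT, SNAI2 is highest in A20-OE, and CDH2 and ZEB2 do not exceed 5 reads in any library.

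Caveola genes were at their lowest mean in the A20-KO-labelled libraries for CAV1, CAV2 and CAVIN2. CAV1, caveolin-1, the main coat protein, was at 129, 105 and 106 FPKM in WT, at 72.6, 75.4 and 73.7 FPKM in the A20-KO-labelled libraries, and at 100, 103 and 114 FPKM in A20-OE. The libraries labelled A20-KO lay below all others, and WT and A20-OE overlapped. CAV1 fell in A20-KO against WT (log2 fold change -0.61, SE 0.11, adjusted p = 0.0044) and rose in A20-OE against A20-KO (0.52, SE 0.11, adjusted p = 0.022), with -0.09 (adjusted p = 0.57) in A20-OE against WT. CAV2, caveolin-2, its partner and neighbouring gene, was at 31.1, 19.7 and 20 FPKM in WT, at 17.9, 18.3 and 16.7 FPKM in the A20-KO-labelled libraries, and at 28.6, 28 and 30.8 FPKM in A20-OE. It was lowest in the same group, and the first WT library stood with A20-OE. CAV2 rose in A20-OE against A20-KO (log2 fold change 0.72, SE 0.16, adjusted p = 0.031), with -0.39 (adjusted p = 0.12) in A20-KO against WT and 0.34 (adjusted p = 0.16) in A20-OE against WT, where it passed after the GC content correction (0.44, adjusted p = 0.011). Both rises between the edited lines were lost without any 1 A20-OE library or any 1 of the A20-KO-labelled libraries.

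CAVIN2, a coat protein that shapes caveolae (chromosome 2, 191834302 to 191847255, minus strand), had 10, 18 and 18 WT reads, 2, 3 and 2 in the A20-KO-labelled libraries, and 13, 14 and 7 in A20-OE. Its libraries labelled A20-KO were all at or under 3 reads and below all others. Adjusted for depth, the summed reads were 6.34 times higher in WT than in the A20-KO-labelled libraries (95% counting interval 2.84 to 16.6) and 4.93 times higher in A20-OE (2.15 to 13.2). The study had q-PCR primers for CAVIN2, and the paper does not name it among the genes whose q-PCR changed as in its RNA-seq. The fitted log2 fold change was -1.14 (SE 0.35, adjusted p = 0.045) in A20-KO against WT and 0.91 (SE 0.35, adjusted p = 0.14) in A20-OE against A20-KO. CAVIN2 passed the filter of 0.1 FPKM through WT and A20-OE (mean FPKM 0.19 and 0.147, against 0.03 in the A20-KO-labelled libraries), so it was tested only because those groups were higher, and its call is no evidence beyond the read counts. The first value was called in 10 of 21 settings and was lost, among others, with no filter on low values, without WT replicate 2 or 3, without any 1 of the A20-KO-labelled libraries, without A20-OE replicate 1 and after the GC content correction (-0.98, adjusted p = 0.075). CAVIN1, which CAV1 needs to form caveolae, had similar means in the 3 groups: 51 ± 11.7, 52.8 ± 0.914 and 56.4 ± 2 FPKM (SD, n = 3), and it passed in 0 comparisons in limma, in limma-voom or at an unadjusted p under 0.05. After the GC content correction (59.9% GC) its value in A20-KO against WT went from 0.08 to -0.25 and passed (SE 0.08, adjusted p = 0.047).

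**Figure D5:**
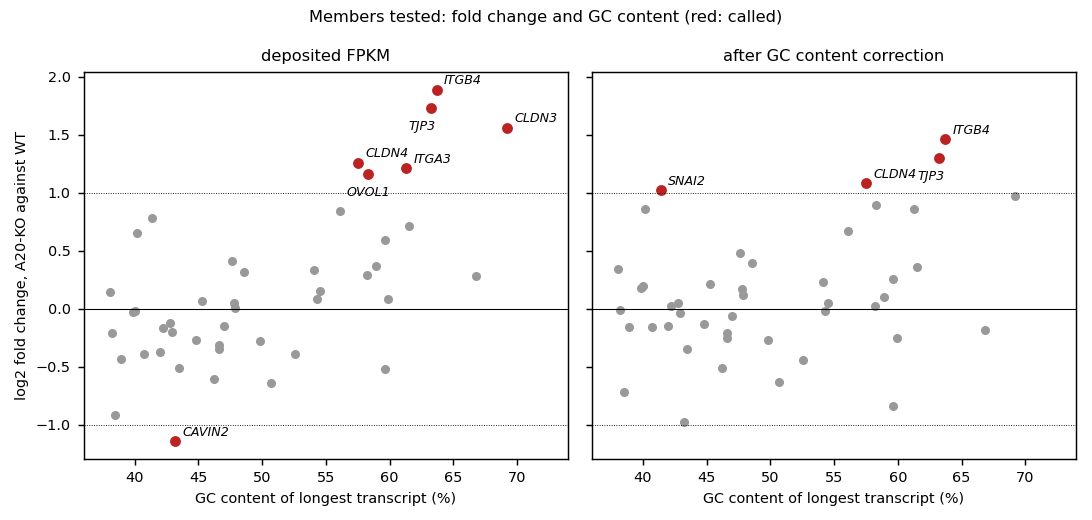
Log2 fold change of the 45 members in A20-KO against WT against the GC content of their longest transcript, from the deposited FPKM (left) and after the GC content correction (right); red points are called. The members called higher on the left have 57.5 to 69.2% GC, and on the right CLDN4, TJP3 and ITGB4 are still called, with SNAI2 added.

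The other genes of the same structures were counted as lists, beside 11.3% of all genes that rose and 11.0% that fell in A20-KO against WT, 4.43% and 4.54% in A20-OE against A20-KO, and 15.7% and 15.4% in A20-OE against WT. Genes of these lists are given without the GC content correction, so the part of GC content in their values was not tested. Of those named as higher against WT, LAMA5 had 66.4% GC, CLDN9 and CDHR5 64.5%, LIMS2 62.4% and ITGA2B 61.1%. LAMB2 had 60.3%, PPL 59.5%, ITGAX 56.3%, NECTIN4 55.5% and GRHL3 52.1%. Of 25 other tight junction genes tested, 6 rose and 1 fell in A20-KO against WT, 3 rose and 2 fell in A20-OE against A20-KO, and 10 rose and 2 fell in A20-OE against WT. CLDN9 was at 0.216, 0.488 and 0.449 FPKM in WT, at 1.65, 2.06 and 2.85 FPKM in the A20-KO-labelled libraries and at 2.96, 2.73 and 3.76 FPKM in A20-OE (log2 fold change 2.26 and 2.79 against WT, adjusted p = 0.00094 and 0.00014). JAM3, a junctional adhesion molecule, had a value of -0.90 (adjusted p = 0.075) in A20-KO against WT and fell by 1.42 on the log2 scale in A20-OE against WT (adjusted p = 0.009).

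Of 16 other adherens junction genes tested, 3 rose and 5 fell in A20-KO against WT, 1 rose and 1 fell in A20-OE against A20-KO, and 4 rose and 3 fell in A20-OE against WT. NECTIN4, a nectin of adherens junctions, rose in all 3 comparisons, with log2 fold changes of 1.94, 0.92 and 2.86 (adjusted p = 0.00033, 0.021 and 1.7e-05). CDHR5, a protocadherin of microvilli, was called higher against WT in both edited lines (1.39 and 2.26, adjusted p = 0.042 and 0.0033). Of 5 other desmosome genes tested, 2 rose in A20-KO against WT, 1 rose and 2 fell in A20-OE against A20-KO, and 2 rose and 1 fell in A20-OE against WT. PPL, periplakin, which links desmosomes to keratin, was at 7.24, 9.41 and 9.19 FPKM in WT, at 18.9, 19.1 and 17.4 FPKM in the A20-KO-labelled libraries and at 24.3, 25.5 and 23.4 FPKM in A20-OE, with log2 fold changes of 1.10 and 1.5 against WT (adjusted p = 0.0004 and 3.3e-05).

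Of 12 other integrin genes tested, 3 rose in A20-KO against WT, 1 fell in A20-OE against A20-KO, and 3 rose and 1 fell in A20-OE against WT. ITGAX and ITGA2B, integrin chains best known from leukocytes and platelets, were called higher against WT in both edited lines, with log2 fold changes of 1.41 and 1.79 for ITGAX and 1.52 and 1.45 for ITGA2B. Their highest library was at 2.11 FPKM for ITGAX and 2.94 FPKM for ITGA2B. Of 10 other laminin and hemidesmosome genes tested, 3 rose in A20-KO against WT, 1 in A20-OE against A20-KO and 4 in A20-OE against WT. In limma 0 of them fell, with 1 lower in each comparison at an unadjusted p under 0.05 and 1 by limma-voom in each comparison with WT. LAMB2, the laminin β2 chain, rose in all 3 comparisons (log2 fold changes 0.91, 0.43 and 1.34, adjusted p = 0.00039, 0.024 and 2.1e-05). LAMA5, the laminin α5 chain, was called higher against WT in both edited lines (log2 fold changes 1.14 in A20-KO and 1.31 in A20-OE, adjusted p = 0.0035 and 0.00098). Of 26 focal adhesion genes, 1 rose and 2 fell in A20-KO against WT, 2 rose and 2 fell in A20-OE against A20-KO, and 3 rose and 1 fell in A20-OE against WT. PARVA, parvin α, fell in both comparisons with WT (-0.77 and -1.18), and LIMS2, its partner in the integrin-linked kinase complex, rose by 1.40 in A20-OE against WT (adjusted p = 0.0012). Of 6 other caveola genes tested, 0 changed in A20-KO against WT in limma or limma-voom, with 1 higher at an unadjusted p under 0.05, and 1 rose in each of the other comparisons.

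Of 21 other EMT genes tested, 6 rose and 5 fell in A20-KO against WT, 5 rose in A20-OE against A20-KO, and 11 rose and 2 fell in A20-OE against WT. The list holds both epithelial and mesenchymal genes, so its counts have no single direction. GRHL3, a grainyhead-like factor of the epithelial side, was at 1.15, 1.11 and 1.4 FPKM in WT, at 5.68, 6.15 and 5.66 FPKM in the A20-KO-labelled libraries and at 8.96, 9.47 and 10.1 FPKM in A20-OE. The groups did not overlap, and it rose in all 3 comparisons (log2 fold changes 2.18, 0.69 and 2.87, adjusted p = 2.5e-05, 0.01 and 2.1e-06). TWIST1, an inducer of EMT, had 31, 29 and 40 WT reads, 0, 1 and 0 in the A20-KO-labelled libraries, and 2, 0 and 0 in A20-OE. It passed the filter on low values only through WT (mean 0.657 FPKM, against 0.00667 in the A20-KO-labelled libraries and 0.014 in A20-OE). Its fall in both comparisons with WT, included in the counts above, is thus no evidence beyond these reads. Adjusted for depth the summed reads of TWIST1 were 96.5 times higher in WT than in the A20-KO-labelled libraries, with a 95% counting interval from 16.9 to 3850. A difference between the edited lines was not detectable at this depth.

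Defining markers of other cell types were checked in the same libraries. Of 8 fibroblast markers, 7 were under 0.1 FPKM in every library, and COL1A1 made up the list at 4.55 to 5.8 FPKM in WT, 12.4 to 14.9 FPKM in the A20-KO-labelled libraries and 11 to 12.2 FPKM in A20-OE. PTPRC, CD3E and CD68 were under 0.1 FPKM in every library, and the sum of the 8 leukocyte markers ranged from 0.603 to 0.717 FPKM in WT, from 0.597 to 1.09 in the A20-KO-labelled libraries and from 0.399 to 1.03 in A20-OE. Of 8 endothelial markers, 5 were under 0.1 FPKM in every library, and the sum ranged from 3.91 to 6.9 FPKM. Among 8 colon epithelial markers VIL1 and CDX1 were under 0.1 FPKM in every library, while the sum, mostly keratins, ranged from 934 to 1330 FPKM in WT, from 1560 to 2110 in the A20-KO-labelled libraries and from 1570 to 2090 in A20-OE. KRT20, a keratin of differentiated colon cells, was at 0.698, 0.867 and 0.78 FPKM in WT, at 3.79, 4.23 and 3.77 FPKM in the A20-KO-labelled libraries and at 3.52, 3.67 and 3.68 FPKM in A20-OE, with log2 fold changes of 2.19 and 2.08 against WT. KRT19 had log2 fold changes of 1.02 and 1.06 against WT (adjusted p = 0.0062 and 0.0031). Of the 5 colon epithelial markers tested, these 2 alone rose against WT in limma, while 3 in A20-KO and 4 in A20-OE were higher by limma-voom. KRT8 (0.53 in A20-KO and 0.52 in A20-OE, adjusted p = 0.07 and 0.06) and KRT18 (0.42 and 0.45, adjusted p = 0.15 and 0.11) did not pass in limma. GC content was 61.8% for KRT19 and 45.7% for KRT20, and their values are given without the GC content correction. In these bulk libraries fewer cells of a type and less RNA per cell cannot be told apart, and the part that these marker shifts play in the junction genes was not tested.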

How the data were processed

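RNA-seq was done on poly-A selected RNA of 9 HCT116 libraries, 3 per group, with paired-end reads. The authors aligned reads with HISAT2 2.0.5 and counted them on genes with featureCounts 1.5.0-p3, per the labels. They deposited FPKM per gene, with a gene length column, in 1 table. The build and the use of strand in counting are not given in the sources used here. Gene coordinates in the table equal those of GENCODE 29 on GRCh38 for 58735 of 58735 genes. The FPKM times gene length were whole multiples of 1 read for 100% of nonzero values, within 0.05 reads, and the deposited values already carry a median-of-ratios scaling (factors 1.011 in every library).

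Samples were grouped by the genotype label. Limma 3.58.1, run in R 4.3.3, fitted log2(FPKM + 0.1) by group with the variance trend switched on, over 21636 genes with a mean of at least 0.1 FPKM, all 9 libraries in 1 fit. Genes were called at a Benjamini-Hochberg adjusted p under 0.05 when the log2 fold change also exceeded 1 in absolute value. Fold changes on this scale understate those of low genes. Intervals for read ratios are exact 95% binomial intervals, which cover counting error only. The script was tested on simulated data. GC content is that of the longest GENCODE 29 transcript.

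The members and gene lists were chosen with earlier results of these data known, and 1 gene of a list is not reported here. Values in every library are given for members called, for those past the adjusted p with an absolute log2 fold change above 0.5, for CDH1, CDH2, VIM, FN1, ZEB1, ZEB2, SNAI1, SNAI2 and TNFAIP3, and for the member with the highest mean FPKM of each class. Other members and the highest called genes of each list were given more briefly. CDH3, CTNNA1, CTNND1, GRHL2, CLDN12 and CAVIN1 were described after their values were seen, as were the promoter motifs and the windows shown. Alternatives were pseudocounts of 1 and 0.01, other filters, another scaling, 2 groups per fit, a replicate block, no variance trend, limma-voom on recovered reads and each library left out. Chosen after seeing the data were scaling to total or nuclear reads and a correction for GC content (50 bins of genes), on its own or beside the block.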

Additional observations from a re-analysis of the deposited data

How the results depend on the processing

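Over the 22 settings of the test, 96 gene results gave 2103 recomputed values. Of these, 1903 were counted as unchanged: they kept their side of the threshold and their direction, or changed sign by less than the SE without passing. Another 109 lost significance, 79 gained it and 12 changed sign by at least the SE without passing. The 12 were PKP3, ITGB1, ESRP1 and FN1 in A20-KO against WT and ITGA3 and MARVELD2 in A20-OE against A20-KO, mostly with the GC content correction (PKP3 from 0.28 to -0.18). In A20-KO against WT, 7 members were called, against 4 after the GC content correction, alone or with the replicate block, and between 6 and 7 with 1 library left out. On the adjusted p alone the 15 members became between 9 and 15 with 1 library left out, the lowest without WT replicate 2. In A20-OE against A20-KO, 1 member was called, 2 by limma-voom and between 1 and 2 with 1 library left out. On the adjusted p alone the 8 members of that comparison became 2 with no filter on low values, 5 without a variance trend, 14 by limma-voom, 17 after the GC content correction and 19 with the block as well, and between 1 and 13 with 1 library left out. In A20-OE against WT, between 9 and 12 members were called with 1 library left out, and between 19 and 24 passed the adjusted p alone. The shares of all genes in these other settings were not counted. Deviations of same-numbered libraries correlated between -0.03 and 0.12, and those of differently numbered libraries of 2 groups between -0.13 and 0.07. With 3 libraries per group these values cannot settle whether the replicate numbers pair the libraries. With the replicate block 6, 1 and 11 members were called in the 3 comparisons and 18, 12 and 25 passed the adjusted p alone; added in A20-KO against WT were CDH1, CLDN7, DSC2 (adjusted p = 0.041) and ITGA2, and CAVIN2 was lost. Median-of-ratios scaling changed nothing, since the deposited values already carry it. The cause of the other changes was not tested. Genes with few reads, among them CDH2, ZEB2, VIM, CAVIN2 and TWIST1, are limited by depth.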
